A study of Mus musculus with 6 samples.

Results

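The 10 genes described here belong to the antioxidant and glutathione programme of the transcription factor Nrf2, encoded by Nfe2l2: Nfe2l2 itself, Keap1, Nqo1, Gclc, Gclm, Gss, Gpx1, Gpx2, Txnrd1 and Srxn1. They were chosen by name, and every probe set (a group of short array probes for 1 transcript) whose platform annotation names exactly 1 gene, that gene being a member, was taken. This gave 20 probe sets for the 10 genes, of 45037 probe sets on the array after removal of controls. Of the 20, 17 were bright enough to be tested, at least 1 for each gene, among 18013 tested probe sets in all.

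Jejunum, the small intestine between duodenum and ileum, was taken from 3 Ifrd1 (TIS7) and Ifrd2 (SKMc15) double knockout mice (dKO, mice 1, 2 and 3) and from 3 wild type mice (WT, mice 1, 3 and 4). All 6 were male, on the C57BL/6 background, 7 to 10 weeks old, caged singly, and fed a diet with 42% of its energy from milk fat and added cholesterol, for 3 weeks according to the extraction protocol; the growth protocol gives a range of 3 to 8 weeks. Each mouse was measured on its own Affymetrix whole-genome mouse array, so the spread within a group includes the variation between animals. Both genotypes received the diet and no mouse on another diet was measured, so each difference below is one of genotype under high fat feeding. Ifrd1 and Ifrd2 encode related transcriptional co-regulators. Neither the removed exons nor any litter relation between the genotypes is given in the labels.

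In unstressed cells the adaptor protein Keap1 holds Nrf2 for ubiquitination and breakdown. Oxidants and electrophiles modify cysteines of Keap1, Nrf2 then accumulates, and with a small Maf partner it binds antioxidant response elements near its target genes. The targets include the enzymes that make glutathione and those that use it, or thioredoxin, to reduce peroxides and oxidised proteins. In the intestine these enzymes meet oxidised lipids and food electrophiles at the absorptive surface, and Gpx2 is known as the gastrointestinal glutathione peroxidase of the crypt.

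Lower levels in double knockout jejunum were called for 2 of the 10 genes: Gclm, the modifier subunit of the rate-limiting enzyme of glutathione synthesis, and Nfe2l2. Gclm fell to 63.9% and 53.2% of the wild type level on its 2 probe sets. Nfe2l2 fell to 64.9% on 1 probe set, while its brighter probe set, at 82.7%, missed the threshold. None of the other 8 genes passed in either direction, Gclc, the catalytic partner of Gclm, and the classical Nrf2 target Nqo1 among them. A probe set was called where limma's p, adjusted over all tested probe sets, was at most 0.05. By that rule 3 of 17 member probe sets were lower, against a background of 1.93% of all tested probe sets, and 0 were higher, against 2.54%. At an unadjusted p under 0.05 in the same limma fit, 4 member probe sets were lower and 1 was higher. Over all 18013 tested probe sets, 2123 were lower and 2753 higher at that level. The median log2 difference of the 17 (dKO minus WT) was 0.05, against 0.03 over all tested probe sets. In pieces of whole tissue, fewer cells of a type and less RNA per cell cannot be told apart.

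**Figure D1:**
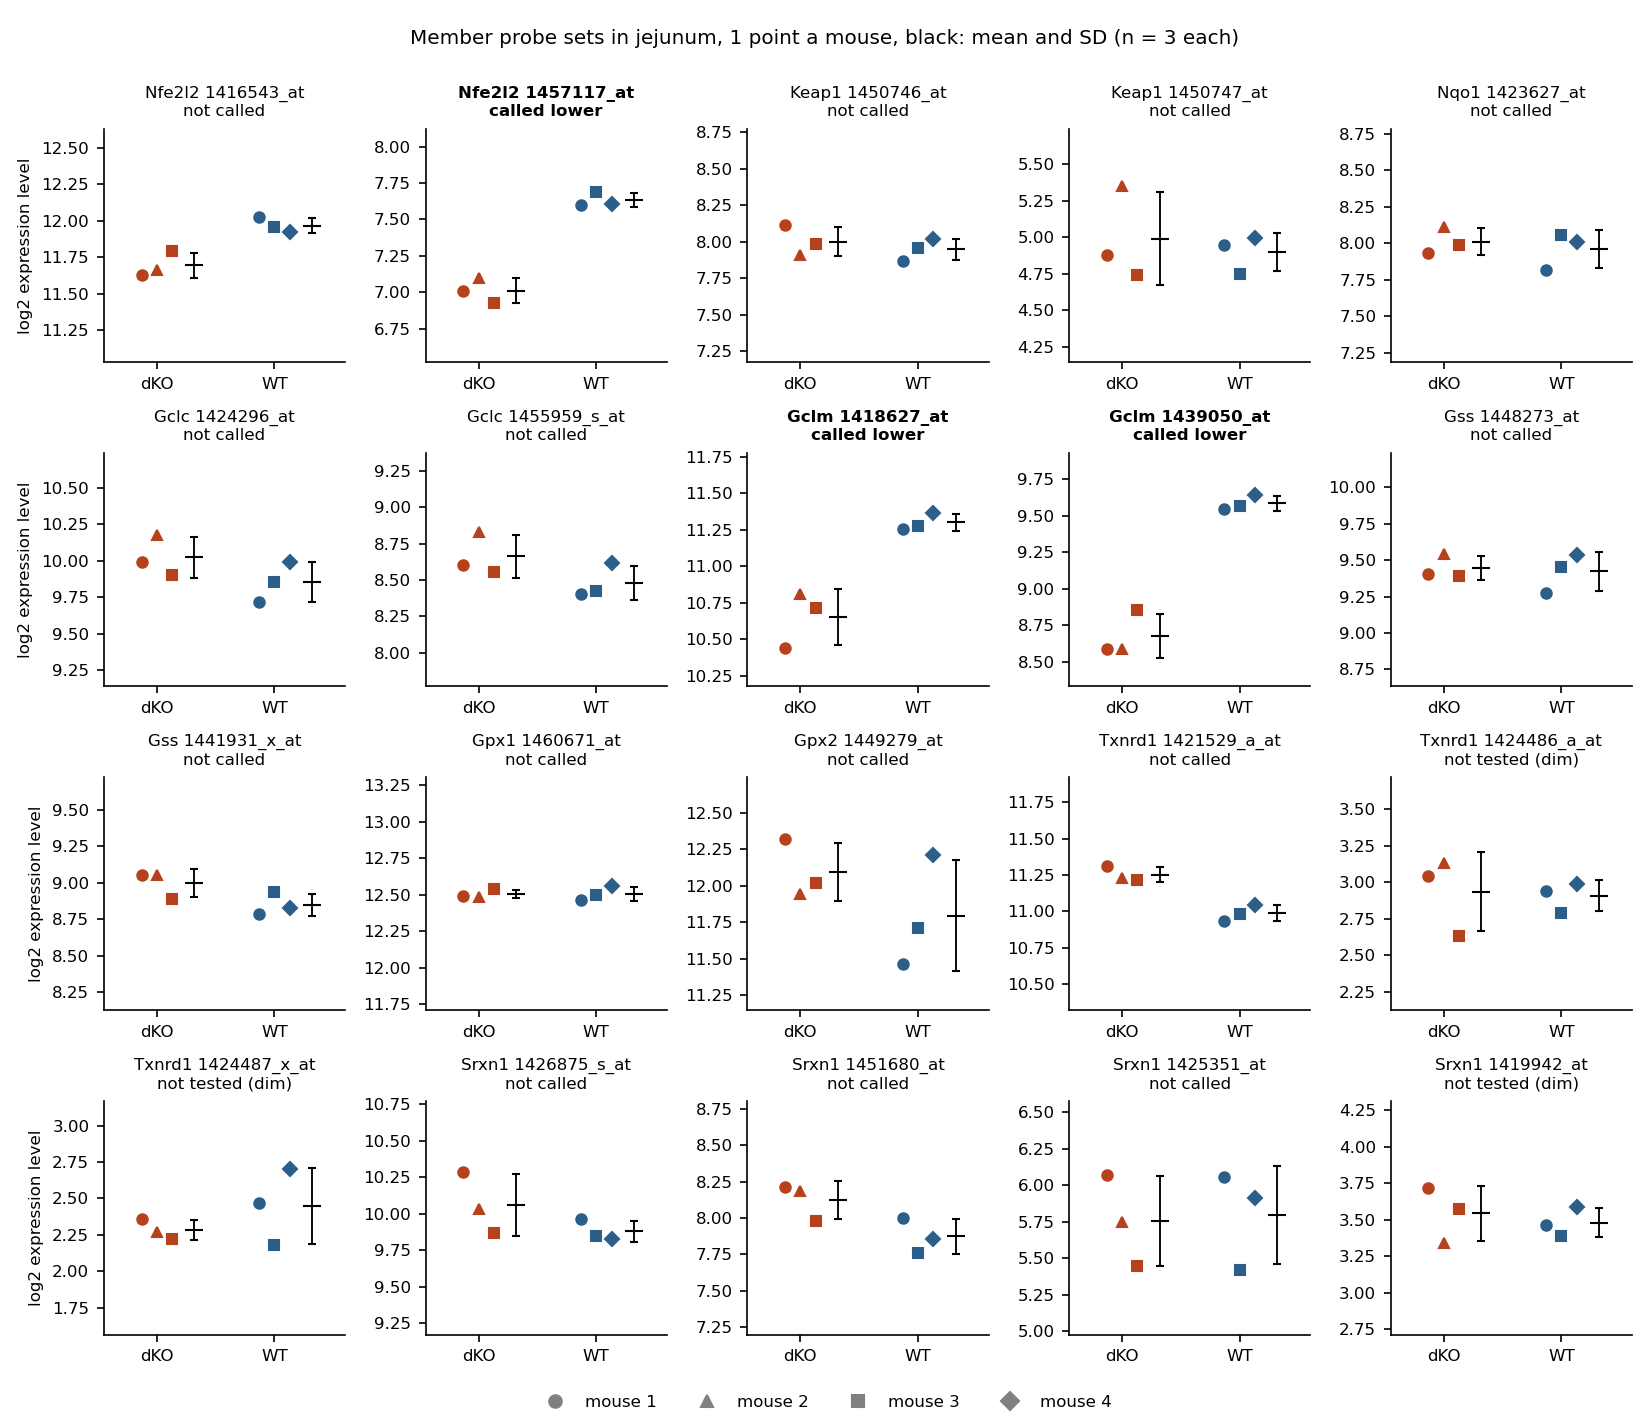
log2 expression level (vertical axes, each spanning the same range of log2 units) of all 20 member probe sets in each mouse, dKO left and WT right, with the mean and SD beside the points (n = 3 each). The 2 Gclm probe sets and the dimmer Nfe2l2 probe set, marked as called lower, have every dKO point below every WT point, and the 3 probe sets marked as not tested lie under a log2 level of 4.

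The RefSeq promoter sequences of Gclm and Nfe2l2 are shown because these are the members with called probe sets. Capitals mark the antioxidant response element core searched for, TGACNNNGC, which Gclm carries on the strand opposite to the gene, so that it reads as its reverse complement here. Both are on the strand of the gene in GRCm38.p6 and end at the last base before the gene's annotated record, Gclm at chr3:122245307-122245486 (plus strand) and Nfe2l2 at chr2:75704664-75704913 (minus strand).
Gclm: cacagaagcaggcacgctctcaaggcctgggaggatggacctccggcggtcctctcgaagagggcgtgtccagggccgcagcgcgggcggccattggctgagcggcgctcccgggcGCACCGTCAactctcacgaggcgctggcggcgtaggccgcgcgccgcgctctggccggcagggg
Nfe2l2: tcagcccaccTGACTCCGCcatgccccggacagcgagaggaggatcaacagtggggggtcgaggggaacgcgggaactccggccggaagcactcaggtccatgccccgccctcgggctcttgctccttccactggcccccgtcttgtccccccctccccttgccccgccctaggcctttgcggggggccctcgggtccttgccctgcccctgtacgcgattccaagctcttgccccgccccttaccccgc

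The core was also matched in a promoter window of Txnrd1 and in that of Srxn1, neither of which was called. To compare the matches, the 4 sites are given in the direction of the motif, with the core in capitals. Gclm's lies at chr3:122245413-122245441, Nfe2l2's at chr2:75704885-75704913, Txnrd1's at chr10:82859104-82859132 and Srxn1's at chr2:152105542-152105570, all on the minus strand of GRCm38.p6.
Gclm: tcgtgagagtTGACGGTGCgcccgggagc
Nfe2l2: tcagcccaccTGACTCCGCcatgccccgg
Txnrd1: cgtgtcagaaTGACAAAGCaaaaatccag
Srxn1: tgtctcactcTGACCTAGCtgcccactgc

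The Gclm record begins upstream of the start site that its window is counted from, so the Gclm sequence above stops 70 bases short of that site, and the Nfe2l2 sequence runs up to its own. Counted from the start site of each window, the core begins at base -134 in Gclm, -240 in Nfe2l2, -92 in 1 of 3 Txnrd1 windows and 29 in Srxn1. Windows run from 250 bases before to 50 bases after a start site. Of 11 windows of the members, 4 held the core on either strand, and so did 12.4% of all 32851 RefSeq promoter windows. The core shares its first bases with the AP-1 motif TGANTCA, and 0 of the 4 sites overlapped a match to that motif. The single windows of Keap1, Nqo1, Gss, Gpx1 and Gpx2 had no match within these letters and limits. A match is a run of letters, and no binding was measured in these mice.

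Nfe2l2, the transcription factor, was measured by 2 probe sets. On probe set 1457117_at its log2 level was 7.01, 7.10 and 6.92 in dKO mice 1, 2 and 3, against 7.60, 7.69 and 7.61 in WT mice 1, 3 and 4. Every dKO value lay below every WT value, with 0.50 between the nearest mice. The mean was 7.01 ± 0.09 in dKO and 7.63 ± 0.05 in WT (SD, n = 3 each). The log2 difference was -0.62 ± 0.09 (SE, limma adjusted p = 0.0230). The brighter probe set, 1416543_at, read 11.63, 11.66 and 11.79 in dKO, against 12.02, 11.95 and 11.92 in WT. These groups did not overlap either, but they were only 0.13 apart, and the difference of -0.27 ± 0.09 (SE) missed the threshold (limma adjusted p = 0.109, 95% interval -0.48 to -0.07). Its interval lies below 0, as a single value with no adjustment for the number of probe sets tested. The fall was 0.35 log2 units greater on the dimmer probe set. An exact two-sided permutation test over the 20 splits of the mice gave p = 0.1, the smallest these groups allow. That test could not reach 0.05, so it does not decide whether the 2 probe sets differ. Which parts of the transcript the probes of each set match was not analysed here.

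Keap1, the inhibitor of Nrf2, gave no detectable difference on either probe set. Probe set 1450746_at averaged 8.00 ± 0.10 in dKO and 7.95 ± 0.07 in WT (SD, n = 3 each), a log2 difference of 0.05 with a 95% interval of -0.17 to 0.27. The dimmer 1450747_at averaged 4.99 ± 0.32 in dKO and 4.90 ± 0.13 in WT, close to the filter, and its interval was wider, from -0.31 to 0.50. The limma adjusted p-values were 0.736 and 0.749, and dKO and WT values overlapped on both.

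Nqo1, a quinone reductase often used as a readout of Nrf2 activity, had a log2 level of 7.93, 8.11 and 7.99 in dKO mice, against 7.81, 8.06 and 8.01 in WT mice. The groups interleaved. The log2 difference was 0.05 ± 0.10 (SE, limma adjusted p = 0.781), and its 95% interval, -0.19 to 0.29, equals a linear ratio of 0.875 to 1.22.

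Glutathione is made in 2 enzymatic steps: glutamate-cysteine ligase, of the subunits Gclc and Gclm, joins glutamate and cysteine, and glutathione synthetase, Gss, adds glycine. Gclm lowers the amount of glutamate the ligase needs and weakens its feedback inhibition by glutathione. On probe set 1418627_at, Gclm had a log2 level of 10.44, 10.81 and 10.71 in dKO mice 1, 2 and 3, against 11.25, 11.28 and 11.37 in WT mice 1, 3 and 4. All dKO values were lower than all WT values, and the spread within dKO (SD 0.19) was wider than within WT (SD 0.06). The difference was -0.65 ± 0.12 (SE, limma adjusted p = 0.0369, 95% interval -0.92 to -0.37). On 1439050_at, Gclm read 8.59, 8.59 and 8.85 in dKO, against 9.55, 9.57 and 9.65 in WT. Here the nearest dKO and WT mice were 0.70 apart, and the difference was -0.91 ± 0.10 (SE, limma adjusted p = 0.0156, 95% interval -1.16 to -0.67). Among all tested probe sets, 97.5% had a smaller absolute difference than this one, and 93.6% a smaller one than 1418627_at. The dKO mouse with the highest Gclm value was mouse 2 on 1418627_at and mouse 3 on 1439050_at, so the order of the dKO mice was not shared by the 2 probe sets.

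Gclc, the catalytic subunit, did not pass. Probe set 1424296_at read 9.99, 10.18 and 9.90 in dKO, against 9.72, 9.86 and 9.99 in WT, and 1455959_s_at read 8.60, 8.83 and 8.56 in dKO, against 8.40, 8.42 and 8.61 in WT. The groups overlapped on both. The log2 differences were 0.17 ± 0.11 and 0.18 ± 0.11 (SE), with limma adjusted p-values of 0.382 and 0.336 and 95% intervals of -0.10 to 0.44 and -0.08 to 0.45. Without dKO mouse 2 they were 0.090 and 0.098, and without WT mouse 1 that of 1424296_at was 0.099. Both intervals lie wholly above those of the 2 Gclm probe sets. Taken within each array, the difference between genotypes was 0.81 log2 units lower for Gclm than for Gclc on the brighter probe set of each gene and 1.09 lower on the dimmer. The exact two-sided permutation test over mice gave p = 0.1 for each, again the smallest possible (0.1 after Benjamini-Hochberg adjustment over the 3 such contrasts computed).

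Gss averaged 9.45 ± 0.08 in dKO and 9.42 ± 0.13 in WT on 1448273_at (SD, n = 3 each), a log2 difference of 0.03 ± 0.10 (SE, limma adjusted p = 0.893, 95% interval -0.22 to 0.27). Its other probe set, 1441931_x_at, stood at 0.15 ± 0.09 (SE, limma adjusted p = 0.334, 95% interval -0.07 to 0.37). An _x_at suffix marks probes that may also bind other transcripts, and an _s_at suffix probes shared by several transcripts, so the values of 1441931_x_at, of Gclc 1455959_s_at, of Srxn1 1426875_s_at and of Txnrd1 1424487_x_at may be less specific.

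**Figure D2:**
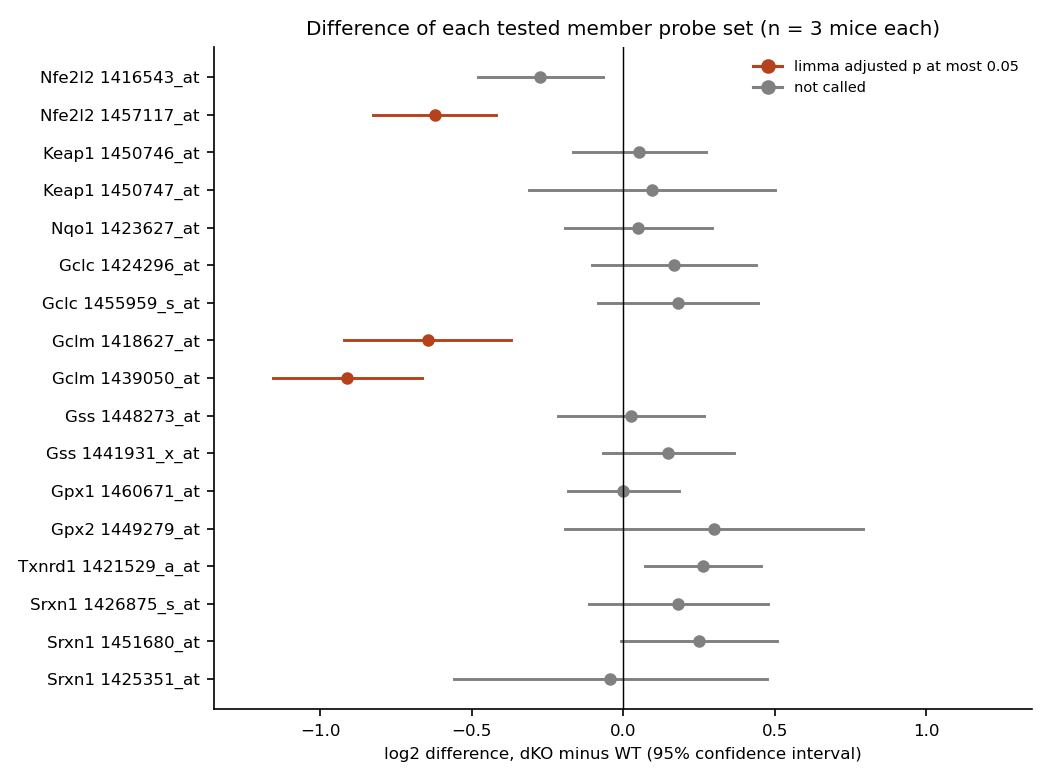
log2 difference, dKO minus WT, of the 17 tested member probe sets (points) with limma's 95% confidence interval (bars), n = 3 mice each. Of the intervals, those of the 2 Gclm and the 2 Nfe2l2 probe sets lie below 0 and that of Txnrd1 lies above 0. The 3 called probe sets are in colour, and the Gpx2 and Srxn1 1425351_at intervals are the widest.

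The glutathione peroxidases Gpx1 and Gpx2 are selenoproteins that reduce peroxides at the expense of glutathione. Gpx1, the ubiquitous cytosolic form, had nearly the same level in all 6 mice: 12.49, 12.49 and 12.54 in dKO, against 12.46, 12.50 and 12.56 in WT. The log2 difference was 0.00 ± 0.08 (SE, limma adjusted p = 0.998), with a 95% interval of -0.18 to 0.18. Gpx2 varied far more between mice of 1 genotype, with 12.32, 11.94 and 12.02 in dKO, against 11.46, 11.71 and 12.21 in WT. WT mouse 4 lay above 2 of the 3 dKO mice. The difference was 0.30 ± 0.21 (SE, limma adjusted p = 0.384), and the 95% interval of -0.19 to 0.79 leaves room for a ratio from 0.876 to 1.73. Without WT mouse 4 it was 0.51 (limma adjusted p = 0.191), and without WT mouse 1 or dKO mouse 1 it was 0.13 or 0.19.

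Thioredoxin reductase 1, Txnrd1, a selenoprotein that keeps thioredoxin reduced, read 11.31, 11.23 and 11.22 in dKO on 1421529_a_at, against 10.94, 10.98 and 11.05 in WT. Every dKO value was above every WT value, by 0.17 at the nearest. The difference of 0.26 ± 0.08 (SE), a ratio of 1.20, did not pass (limma adjusted p = 0.101, 95% interval 0.07 to 0.46). Its other 2 probe sets, 1424486_a_at and 1424487_x_at, were too dim to test, averaging 2.94 ± 0.27 and 2.28 ± 0.07 in dKO and 2.91 ± 0.11 and 2.45 ± 0.26 in WT (SD, n = 3 each).

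Sulfiredoxin, Srxn1, which repairs overoxidised peroxiredoxins, was measured by 4 probe sets. The brightest, 1426875_s_at, whose probes other transcripts may share, averaged 10.06 ± 0.21 in dKO and 9.88 ± 0.07 in WT (SD, n = 3 each), and 1451680_at averaged 8.13 ± 0.13 in dKO and 7.87 ± 0.12 in WT. Their differences were 0.18 ± 0.12 and 0.25 ± 0.11 (SE, limma adjusted p 0.382 and 0.192). That of 1426875_s_at ranged from 0.070 to 0.28 when 1 mouse was left out, lowest without dKO mouse 1. Probe set 1425351_at stood at -0.04 ± 0.22 (SE, limma adjusted p = 0.918) with an SD of 0.31 in dKO and 0.34 in WT. The remaining one, 1419942_at, was under a log2 level of 4 on all 6 arrays, at 3.34 to 3.72 in dKO and 3.39 to 3.58 in WT. No Srxn1 probe set separated the genotypes.

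Over the 17 tested member probe sets, dKO and WT values did not overlap for 5: the 4 of Gclm and Nfe2l2, with dKO below, and Txnrd1, with dKO above. Groups that do not overlap were common on these arrays, at 14.8% of all tested probe sets with dKO below and 19.5% with dKO above.

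Calls on the members did not hold in every fit that left out 1 mouse. Calls over all probe sets fell in these fits as well, from 458 higher and 347 lower to 11 to 196 higher and 21 to 239 lower. The number of member probe sets called lower was 0 without WT mouse 1, 3 or 4, 1 without dKO mouse 1 or 3 (1439050_at of Gclm in both fits) and 3 without dKO mouse 2. The differences moved less: in these 6 fits they stayed between -0.999 and -0.866 for 1439050_at, between -0.72 and -0.54 for 1418627_at of Gclm, and between -0.67 and -0.58 for 1457117_at of Nfe2l2. With the 3′ to 5′ difference of the Gapdh and β-actin control probe sets, a measure of RNA integrity, as a covariate, the count was 0, and the differences of these 3 were -0.97, -0.53 and -0.59 (limma adjusted p 0.123, 0.222 and 0.162). That 3′ to 5′ difference was 0.41 to 0.61 in dKO and 0.35 to 0.49 in WT on the log2 scale.

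**Figure D3:**
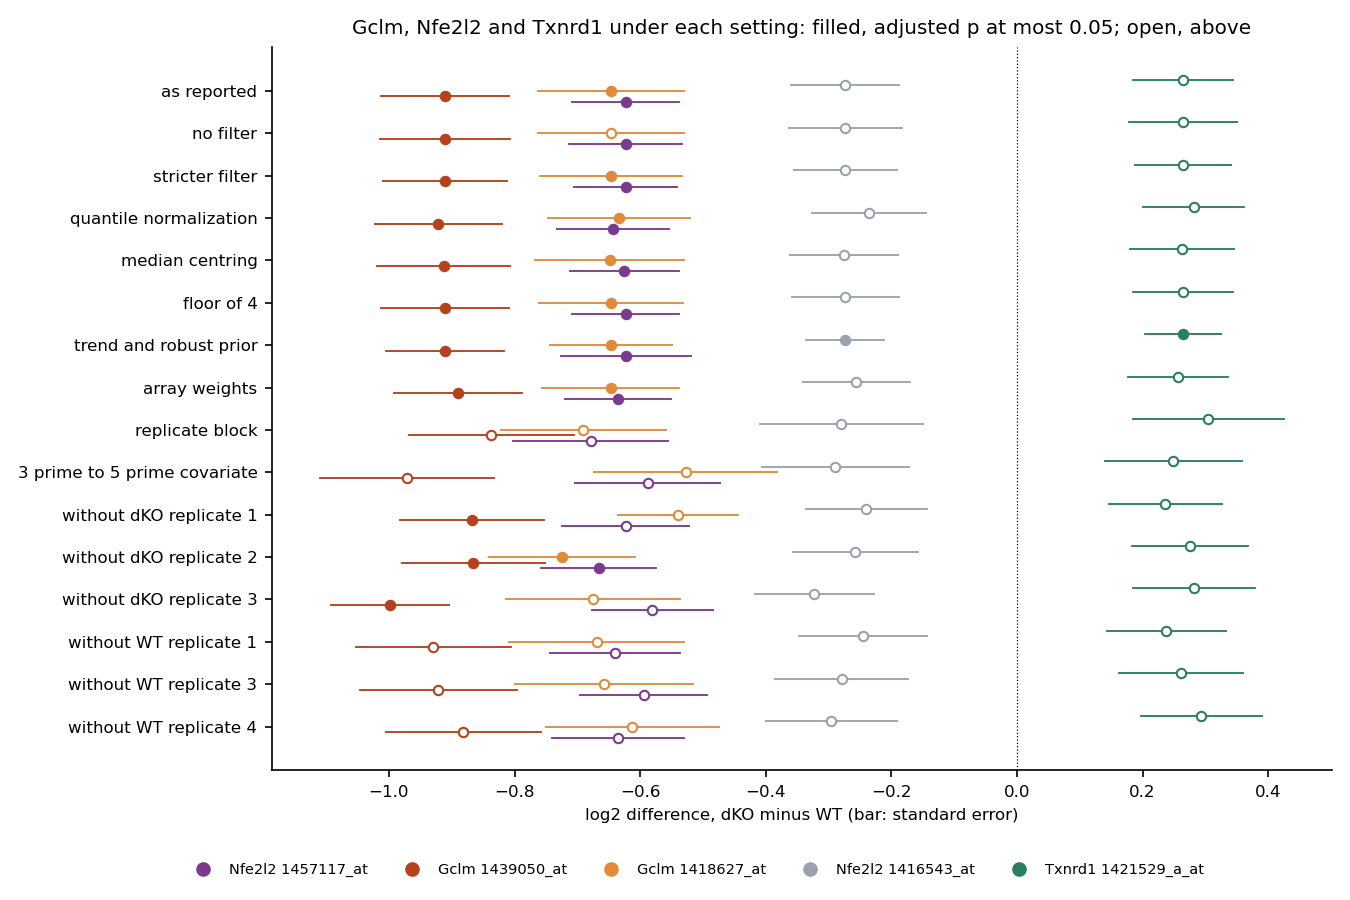
log2 difference, dKO minus WT (points, with limma's standard error as bars), of the 2 Gclm, 2 Nfe2l2 and 1 Txnrd1 probe sets as reported and under each of 15 alternative settings (rows). Filled points have an adjusted p of at most 0.05. All points of Gclm and Nfe2l2 lie below 0 and all of Txnrd1 above 0, while most points are open in the fits that leave out a mouse and all are open in those with the replicate block or the covariate.

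The other genes of the pathway were taken from 6 lists of 124 symbols, none of them a member, with 1 probe set a gene, the brightest. Of 116 matched genes, 103 were tested. Over the 6 lists 2 rose, 3 fell and 98 did not pass, and the median log2 difference was 0.00, against 0.05 over all 9673 tested genes, of which 3.17% rose and 1.6% fell. So few called genes do not show whether the lists differ from the background in either direction, and no set test was run. At an unadjusted limma p under 0.05, 1703 of the 9673 genes were higher and 1004 lower. These are the background for the unadjusted counts of the lists below.

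Of 26 tested Nrf2 targets in detoxification and iron handling, 0 rose and 2 fell (median -0.05; at an unadjusted limma p under 0.05, 3 were higher and 7 lower). The glutathione transferase Gsta3 had a log2 level of 7.11, 7.58 and 6.84 in dKO, against 8.30, 8.44 and 8.07 in WT, and fell by 1.09 (SE 0.20, limma adjusted p = 0.0385). Biliverdin reductase B, Blvrb, which reduces biliverdin and flavins, read 7.32, 7.32 and 7.26 in dKO, against 7.64, 8.00 and 7.98 in WT, a fall of 0.57 (SE 0.12, limma adjusted p = 0.0480). Every dKO value of both genes lay below every WT value. When 1 mouse was left out, the Gsta3 call held in 1 of 6 fits and the Blvrb call in 0 (limma adjusted p 0.0293 to 0.115 and 0.0610 to 0.154). Another transferase, Gsta4, stood at 1.04 ± 0.29 (SE) with every dKO value above every WT value, but did not pass (limma adjusted p = 0.0843). Haem oxygenase 1, Hmox1, a well known Nrf2 target, was under a log2 level of 4 on all 6 arrays.

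Catalase, Cat, which breaks down hydrogen peroxide in peroxisomes, was the 1 gene to fall among 17 tested genes of the thioredoxin, peroxiredoxin, superoxide dismutase and catalase list, with 0 rising (median 0.04; unadjusted, 2 higher and 2 lower). It read 12.04, 12.07 and 12.15 in dKO, against 12.45, 12.46 and 12.57 in WT, a difference of -0.41 ± 0.08 (SE, limma adjusted p = 0.0484). The value of its second probe set, -0.33 ± 0.09 (SE), missed the threshold (limma adjusted p = 0.0858). The Cat call held in 0 of the 6 fits without 1 mouse (limma adjusted p 0.0862 to 0.157).

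Genes that supply NADPH, which glutathione and thioredoxin reductases consume, had 1 rise and 0 falls among 11 tested (median 0.08; unadjusted, 3 higher and 0 lower). It was Idh2, the mitochondrial NADP-dependent isocitrate dehydrogenase, at 8.88, 8.71 and 9.07 in dKO, against 7.98, 7.99 and 8.01 in WT. Idh2 rose by 0.89 ± 0.11 (SE, limma adjusted p = 0.0186), and its other probe set was too dim to test. Among 18 tested genes of selenoprotein synthesis and other selenoproteins, Selenoh, a nucleolar selenoprotein, rose by 0.52 ± 0.10 (SE, limma adjusted p = 0.0459) and 0 fell (median 0.04; unadjusted, 2 higher and 3 lower). The Idh2 call held in 1 of the 6 fits without 1 mouse and the Selenoh call in 0 (limma adjusted p 0.0221 to 0.0875 and 0.0681 to 0.139). The called genes of these lists thus ran both ways.

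Of 13 tested partners and repressors of Keap1 and Nrf2, 0 passed in limma in either direction (median 0.00; unadjusted, 1 higher and 1 lower). Those with the smallest p were the kinase Prkcd at -0.40 ± 0.10 and the related factor Nfe2l1 at 0.25 ± 0.09 (SE, limma adjusted p 0.0758 and 0.130). A second Prkcd probe set stood at -0.40 ± 0.17 (SE) with overlapping groups (limma adjusted p = 0.178). Of 18 tested genes of cystine uptake and glutathione recycling and breakdown, 0 passed in either direction (median -0.14; unadjusted, 3 higher and 5 lower), with 5-oxoprolinase, Oplah, at -0.43 ± 0.12 and the dipeptidase Dpep1 at -0.33 ± 0.10 (SE, limma adjusted p 0.0894 and 0.0947). A second Dpep1 probe set stood at -0.12 ± 0.09 (SE) with overlapping groups (limma adjusted p = 0.447). The cystine transporter Slc7a11 was under a log2 level of 4 on all 6 arrays.

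**Figure D4:**
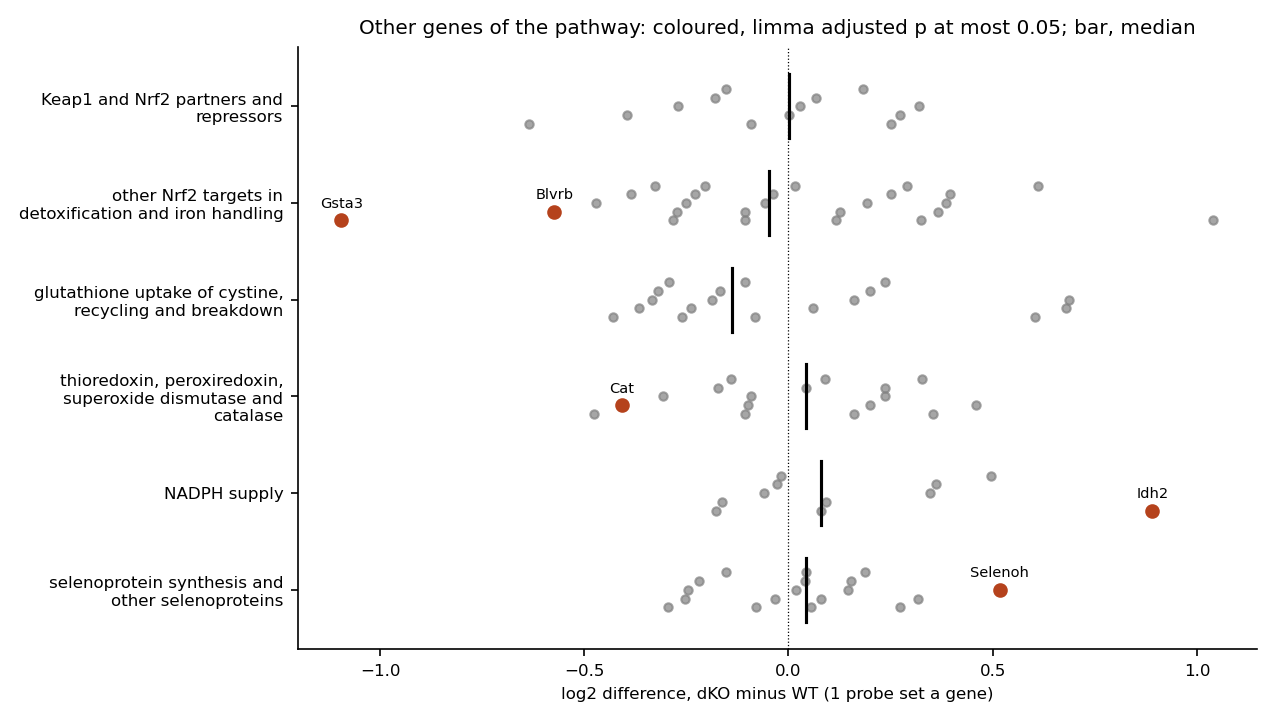
log2 difference, dKO minus WT (horizontal axis), of each tested gene of the 6 pathway lists (rows), 1 probe set a gene, with the list median as a bar. The 5 coloured and named genes passed: Gsta3, Blvrb and Cat lie left of 0, and Idh2 and Selenoh right of 0.

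Tissue makeup was read from marker lists on the same arrays. Of 14 tested enterocyte markers, 3 had a positive difference, 0 rose and 1 fell, and their summed linear level was 127614 to 131983 in dKO and 138678 to 141256 in WT, groups that did not overlap. Of 14 tested proliferating crypt markers, 13 had a positive difference, 6 rose and 0 fell, with a summed level of 8491 to 9514 in dKO and 6480 to 6870 in WT. Over all 9673 tested genes, 58.1% had a positive difference, 3.17% rose and 1.6% fell. The enterocyte and proliferating crypt lists moved with the genotype beside the lower Gclm and Nfe2l2, and their part in those results was not tested. Of the other marker lists, those of crypt stem cells (9 tested genes), goblet cells (8), Paneth cells (5), fibroblasts and matrix (11), smooth muscle (7), macrophages and dendritic cells (7), T lymphocytes (6), plasma and B cells (6) and colon (3) had 0 called genes in limma in either direction, with 9 higher and 1 lower over these lists at an unadjusted p under 0.05. Those were of 62 tested genes, against 1703 higher and 1004 lower of all 9673 tested genes at that level. The tuft cell list (2 tested) and the ileum list (4 tested) each had 1 gene that fell, Rgs13 and Cubn, and no red blood cell marker was bright enough to test. The fibroblast and matrix genes had the highest median of these lists, 0.47, with a summed level of 6922 to 9169 in dKO and 4589 to 7320 in WT. All 11 of them had a positive difference, as had 6 of 7 macrophage and dendritic cell genes. Among goblet cell genes 3 of 8 were positive, and among Paneth cell genes 1 of 5. Summed levels of the plasma and B cell list did not overlap, at 27468 to 27883 in dKO and 22168 to 25979 in WT. Nor did those of the ileum list, at 11402 to 12618 in dKO and 13446 to 14409 in WT. Of its 4 tested genes, however, 2 had a positive difference, and the median was 0.07, opposite in sign to the change of the sum. At an unadjusted limma p under 0.05, 1 ileum gene was higher and 1 lower. The tuft cell sums were 105 to 135 in dKO and 181 to 227 in WT. No matched enterocyte marker was under a log2 level of 4 on all arrays, while the ileum markers Fabp6, Fgf15 and Slc10a2 and the colon markers Aqp8, Car1, Cldn8 and Hoxb13 were.

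The labels were checked with the targeted genes: Ifrd1 averaged 5.30 ± 0.83 in dKO and 9.92 ± 0.08 in WT, and Ifrd2 2.66 ± 0.08 in dKO and 8.38 ± 0.21 in WT (SD, n = 3 each). Keap1, Gclc and Gpx1 lie on chromosome 9 with Ifrd2, and Gpx2 on chromosome 12 with Ifrd1. The 3 called member probe sets belong to genes on chromosomes 2 (Nfe2l2) and 3 (Gclm), which carry neither targeted gene. Called probe sets near Nfe2l2 and Gclm were not counted. Gpx1 is the nearest member to a targeted gene, with 28 protein-coding genes between it and Ifrd2 in GRCm38.p6. Of 29 tested probe sets of the genes between them, 0 were called by limma and 7 had an unadjusted p under 0.05. Between the other such members and the targeted gene, limma called 26 of 175 tested probe sets for Gclc (14.9%), 58 of 614 for Keap1 (9.45%) and 8 of 143 for Gpx2 (5.59%). The stretches of Gclc and Keap1 both end at Ifrd2 and can share probe sets, so their counts are not separate observations. An unadjusted limma p under 0.05 was found for 76 of 175 for Gclc, 212 of 614 for Keap1 and 51 of 143 for Gpx2. Over all 18013 tested probe sets, limma called 4.47% in either direction. At an unadjusted p under 0.05, 2753 of the 18013 were higher and 2123 lower.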

How the data were processed

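Each probe set has 1 deposited log2 value on each array. The authors' tool was GCRMA, version 2.18.0 in the submitters' processing notes, with settings not stated in the labels; the range of the values showed a log2 scale. GCRMA estimates background from the probes' base composition and normalises the arrays jointly, so low levels carry little information. The number of arrays limits the precision. Array medians were 2.87 to 2.90. No array copied another of its group: between any 2, differences over 0.1 were found at 62.5% or more of the tested probe sets.

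Names came from the platform annotation, with symbols updated by gene ID to GRCm38.p6. Of 45101 probe sets 34958 had 1 symbol, 932 several and 9211 none. The 64 controls were removed, and those above 4 on at least 3 of 6 arrays were tested with limma 3.58.1 in R 4.3.3 (lmFit, eBayes, no covariates), dKO minus WT, two-sided, with Benjamini-Hochberg adjustment. The fit was tested on simulated data. Members, lists, filter and tests were chosen with earlier results of these data known. Named were the targeted genes, every member probe set, and of each pathway list the passing genes, up to 6 by p, or the 2 with the smallest p. Gsta4, Hmox1 and Slc7a11 were named after their values were seen. The 14 marker lists were used for counts and sums. Promoter windows are RefSeq's, matched by symbol for 9 of the 10 genes. Alternatives covered the filter, normalization, a floor, array weights, the variance prior, a block for mouse number, RNA integrity and leaving out each mouse. Figures were drawn with matplotlib 3.10.9.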

Additional observations from a re-analysis of the deposited data

How the results depend on the processing

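Of 15 alternatives, 7 left the 3 member probe sets called lower: the stricter filter, quantile normalization, median centring, the floor of 4, array weights and the fit without dKO mouse 2 gave 3, and the trended, robust prior gave 4 lower and 1 higher (Nfe2l2 1416543_at and Txnrd1 were added, limma adjusted p 0.0332 and 0.0343). Without the filter 2 were lower, Gclm 1418627_at having a limma adjusted p of 0.0535. Leaving out 1 mouse gave 0 to 3 lower and 0 higher. The 3 called probe sets, 1416543_at and Txnrd1 kept their direction in all 15.

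Mouse numbers 1 and 3 occur in both groups, but deviations of same-numbered mice correlated at 0.02 and 0.30, and nothing in the labels pairs them. With the replicate block 0 member probe sets and 0 pathway genes were called in either direction; over all probe sets 2 were higher and 11 lower. The limma adjusted p under that block was 0.150 and 0.160 for Gclm and 0.157 for Nfe2l2 1457117_at. With the 3′ to 5′ covariate the counts were 0 for members and pathway genes, and 5 higher and 12 lower over all probe sets. Mouse number 2 occurs only in dKO and number 4 only in WT, so the block difference rests on mice 1 and 3 of each group. It is therefore no check on all 6 mice. The block and the covariate each take degrees of freedom from 6 arrays. What removed the calls with the covariate was not tested.

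Over all probe sets, 458 higher and 347 lower became 265 and 207 without the filter and 968 and 762 with the trended, robust prior; leaving out 1 mouse gave 11 to 196 higher and 21 to 239 lower. Of the pathway genes, 2 higher and 3 lower became 1 and 0 without the filter and 4 and 10 with the trended, robust prior. They became 1 higher and 2 lower after quantile normalization, and 2 higher and 1 lower after median centring. Leaving out 1 mouse gave 0 to 1 higher and 0 to 1 lower. The cause of these moves was not tested.

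Signs turned only for members near 0 and never called: Keap1 1450746_at (-0.020 with the covariate) and 1450747_at (-0.035 with the block, but 0.43 with the covariate), Gpx1 (0.00 after median centring, where it was -0.0017, and -0.014 with the covariate) and Srxn1 1425351_at (0.020 with the block, 0.15 with the covariate). The last value of 1450747_at stands against 0.09 as reported, and Gpx2 was 0.58 with the block, against 0.30 (limma adjusted p 0.222 and 0.224 under these alternatives). Leaving out 1 mouse gave -0.0018 to 0.099 and -0.085 to 0.22 for the 2 Keap1 probe sets, -0.024 to 0.098 for Nqo1, -0.047 to 0.081 for Gss 1448273_at, -0.022 to 0.026 for Gpx1 and -0.23 to 0.11 for Srxn1 1425351_at. The contrasts between 2 probe sets, recomputed after quantile normalization and without each mouse (alternatives added after seeing the data), kept their direction.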
